A study of Rattus norvegicus with 6 samples.

Results

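The cyclic AMP genes are described here in the pituitary gland of adult male rats whose mothers had or had not received nicotine in pregnancy. Members were all gene symbols of the adenylyl cyclases (Adcy followed by a number), the cyclic nucleotide phosphodiesterases (Pde followed by a number and up to 1 letter), the catalytic and regulatory subunits of protein kinase A, the G protein alpha subunits Gnas and Gnal, and the transcription factors Creb1 and Crem. There were 43 members among the 33294 gene symbols of the files. They comprised 10 cyclases, 23 phosphodiesterases, 6 kinase subunits, 2 G protein alpha subunits and 2 transcription factors.

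RNA was sequenced from the pituitary of 6 male Sprague-Dawley rats of 11 weeks, which carried no genetic modification. The nicotine group held 3 sons of dams given 6 mg/kg/day of nicotine, as the tartrate in saline. It came from an osmotic minipump placed under the skin during gestation. The control group held 3 sons of dams whose pump held saline alone. The offspring themselves were not dosed directly, and the sons were studied long after the pumped exposure. The pump was of a type rated to run longer than the interval from implant to birth, and its removal is not described. Whether exposure of the dams went on after birth is therefore not known. Each library came from 1 rat. Which dam each rat came from is not given in the sources used here, so rats of 1 group may share a litter, and p-values measure the spread between these rats.

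In cells that secrete hormones, a receptor coupled to the stimulatory G protein switches on adenylyl cyclase, which makes cyclic AMP from ATP. Cyclic AMP frees the catalytic subunits of protein kinase A from their regulatory subunits, and the kinase then phosphorylates CREB, which binds DNA at the cyclic AMP response element. Phosphodiesterases break the messenger down again. In the anterior pituitary this route carries the signals of growth hormone-releasing hormone and corticotropin-releasing hormone, while dopamine and somatostatin act against it through inhibitory G proteins.

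Total counts ranged from 28318383 to 85977002 per library, and the median total was 1.70-fold larger in the nicotine group. The study lists more reads for its control than for its nicotine libraries, whereas the deposited counts were larger under the nicotine labels. Each library labelled nicotine held more counts than the reads listed for it, and the totals of each group followed, in order, the reads listed for the other group. Every direction given below therefore rests on the labels as deposited and would turn around if the 2 groups were exchanged. Whether the list of reads or the labels of the count files carry the difference cannot be told apart here. All 10 hormone cell markers were detected in every library, and the 9 testis germ cell markers summed to at most 0.149 CPM (counts per 1000000 counts of the library, after TMM normalization), although the protocol in the labels describes testis. The samples were bulk tissue, so that fewer cells of a type and less RNA per cell cannot be told apart. Other cell types differed between libraries: summed posterior lobe markers ranged from 84.3 to 233 CPM in the nicotine libraries and from 11.3 to 77.5 CPM in the control libraries, with all 5 detected, and the 8 fibroblast markers from 346 to 818 CPM against 896 to 1051 CPM. Summed melanotroph markers were at 572 CPM in control library 3 and at 120 to 254 CPM in the other 5. Of the 10 hormone cell markers, 6 had a log2 fold change (nicotine over control) above 0 and 4 below 0. Among them Lhb was at 216, 820 and 223 CPM in the nicotine libraries and at 154, 75.6 and 125 CPM in the control libraries. All 9 smooth muscle and all 8 endothelium markers were above 0. All 7 macrophage, 5 neutrophil and 4 erythroid markers were below 0. The part of these differences in the results below was not tested.

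None of the cyclic AMP genes differed between the groups past the study's thresholds, which ask for a fold change above 1.5 and an adjusted p below 0.1. With edgeR's quasi-likelihood test 0 of the 40 members tested were called, beside 0% of all 17292 genes tested, and with DESeq2 0 members were called, beside 0.339% of all genes. At an unadjusted p under 0.05 edgeR gave 0 members, beside 5.85% of all genes. The remaining 3 members, Pde6a, Pde6b and Pde11a, had too few counts to be tested. The adjusted p of the members in edgeR lay between 0.839 and 0.995.

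**Figure D1:**
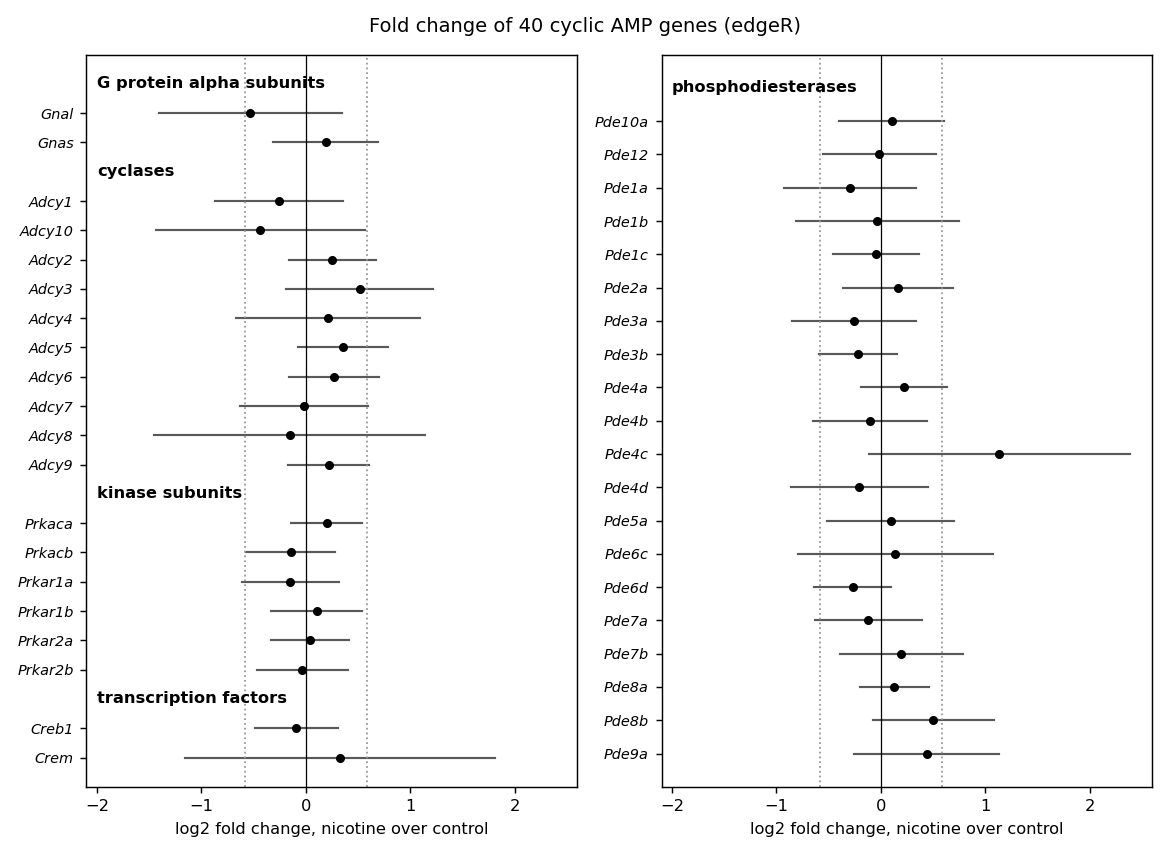
Log2 fold change of the 40 members tested, nicotine over control, from edgeR (points) with the 95% confidence interval (bars), 3 libraries per group, and dotted lines at a fold change of 1.5 in either direction. All 40 intervals include 0, and the intervals of Pde4c and Crem are among the widest.

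The members as a whole lay near the middle of all genes. Their median log2 fold change was 0.07, beside 0.008 for all genes tested, with 21 of the 40 members above 0, beside 51.2% of all genes. It was 0.21 for the cyclases, 0.04 for the phosphodiesterases and 0.005 for the kinase subunits. The 95% interval lay within a 1.5-fold change in either direction for 5 of the 6 kinase subunits, for 3 of the 20 phosphodiesterases tested, for Creb1 and for 0 of the 10 cyclases, which is 9 of the 40 members beside 33.1% of all genes. All kinase subunits had a mean level over the 6 libraries of at least 50.4 CPM, while cyclases went down to 0.221 CPM and phosphodiesterases tested to 0.241 CPM. For the other 31 members the interval reached beyond a 1.5-fold change.

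Gnas encodes the alpha subunit of the stimulatory G protein, the step at which receptors act on the cyclases, and Gnal encodes its close relative, best known from the olfactory epithelium and the striatum. Gnas was at 4745, 5249 and 5468 CPM in nicotine libraries 1 to 3 and at 3972, 4209 and 5344 CPM in control libraries 1 to 3. The highest control library lay above 2 of the nicotine libraries, so the groups overlapped, and the log2 fold change was 0.19 ± 0.23 (SE, n = 3 per group; adjusted p = 0.891 from edgeR). The counts of Gnas cover a complex imprinted locus with several promoters and an antisense transcript, and whether strand was used in the counting is not given in the sources used here. Gnal was at 1.12, 2.72 and 3.01 CPM in the nicotine libraries and at 2.22, 3.05 and 4.68 CPM in the control libraries. Its groups overlapped as well, and its log2 fold change of -0.53 had a 95% interval from -1.41 to 0.35.

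Among the cyclases, Adcy5 and Adcy6, the pair inhibited by calcium and by the inhibitory G protein, both had fitted values above 0. Adcy5 was at 73.2, 94.6 and 65.0 CPM in the nicotine libraries and at 52.5, 56.3 and 73.4 CPM in the control libraries. Control library 3 lay between the nicotine libraries, and the log2 fold change of 0.35 ± 0.20 (SE) had an unadjusted p of 0.0978 in edgeR (adjusted p = 0.846). Adcy6 was at 117, 163 and 120.0 CPM in the nicotine libraries against 96.3, 102 and 133 CPM in the control libraries, again with control library 3 inside the nicotine range (log2 fold change 0.27 ± 0.20, SE).

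Adcy2 is stimulated by G protein beta-gamma subunits when the stimulatory alpha subunit is present. It was at 80.9, 102 and 66.0 CPM in the nicotine libraries and at 74.9, 72.9 and 61.3 CPM in the control libraries. Adcy9, a cyclase that responds little to the plant compound forskolin, was at 16.2, 22.2 and 19.0 CPM against 14.5, 17.0 and 17.8 CPM. Adcy3, the calcium-stimulated cyclase of olfactory cilia, was at 3.33, 4.79 and 4.74 CPM against 1.74, 3.27 and 3.94 CPM. In these 3 genes the groups overlapped, and the log2 fold changes were 0.25 for Adcy2, 0.22 for Adcy9 and 0.52 for Adcy3.

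Adcy1, a calcium-stimulated cyclase of neurons, was the only cyclase whose groups did not overlap. It was at 1.85, 1.79 and 1.57 CPM in the nicotine libraries and at 1.96, 1.97 and 2.30 CPM in the control libraries. The nicotine libraries were thus all lower, by a small amount, and the log2 fold change was -0.26 ± 0.28 (SE; adjusted p = 0.878 from edgeR; exact two-sided permutation p = 0.1, the smallest that 3 against 3 libraries allow). Over all genes tested the groups did not overlap in 11.3%, of which 6.12% were higher and 5.14% lower in nicotine, and among the members in 3 of 40. The 4 cyclases not yet named, Adcy4, Adcy7, Adcy8 and Adcy10, had overlapping groups and log2 fold changes from -0.44 to 0.21. Adcy10, the soluble cyclase that bicarbonate activates, was at 0.890 to 1.46 CPM in the nicotine libraries and at 0.608 to 2.03 CPM in the control libraries.

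Nicotine library 2 was the highest of the 6 libraries for 6 of the 10 cyclases and 4 of the 6 kinase subunits, and for 15 of the 40 members tested. It was the highest for 26.9% of all genes. It was also the library with the largest total count and the highest sum of posterior lobe markers. Of the hormone cell markers, Gh1, Lhb, Fshb, Cga, Tbx19 and Nr5a1 were highest in it, while Prl, Pomc and Tshb were lowest in it. The part of these differences in the order of the members was not tested. Without nicotine library 2 the median log2 fold change of the cyclases was 0.08.

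**Figure D2:**
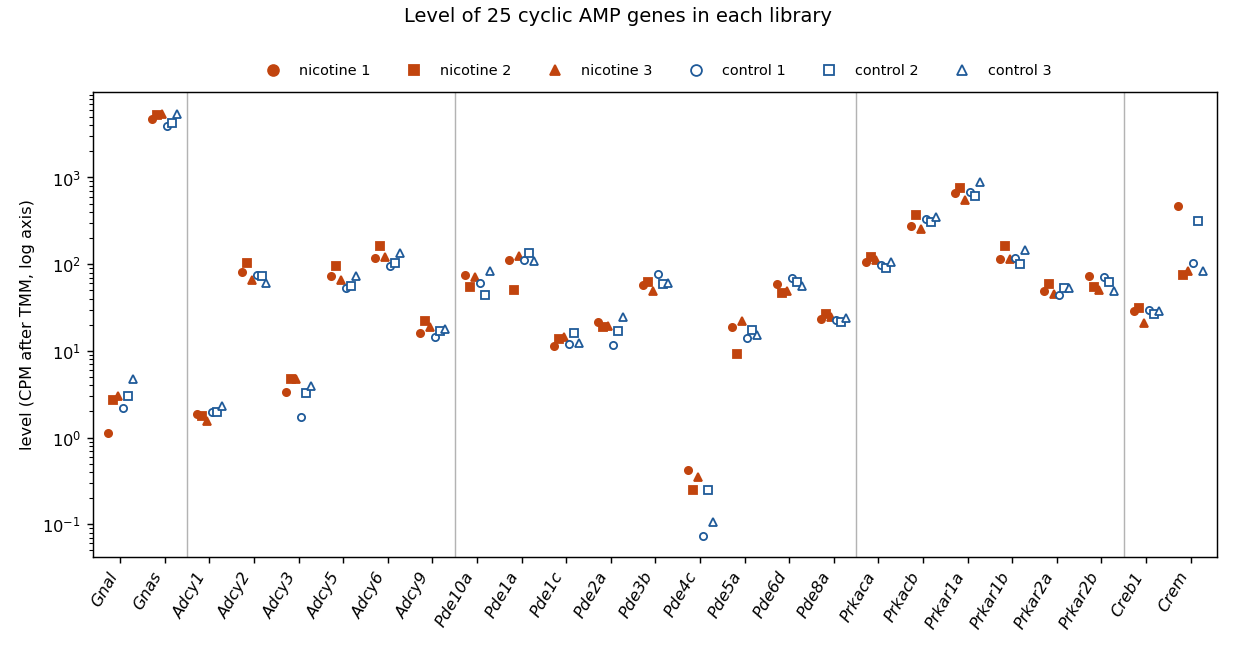
Level of 25 cyclic AMP genes in each of the 6 libraries, in CPM after TMM normalization on a log axis, with filled symbols for the 3 nicotine and open symbols for the 3 control libraries. CPM are not divided by gene length, so heights are to be read within a gene. The symbols of the groups are intermixed in most genes, and Crem is set apart by nicotine library 1 and control library 2.

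Protein kinase A is a tetramer of 2 catalytic and 2 regulatory subunits. Prkaca, which encodes the catalytic alpha subunit, was at 107, 122 and 111 CPM in the nicotine libraries and at 97.9, 91.5 and 106 CPM in the control libraries. All nicotine libraries lay above all control libraries, although nicotine library 1 and control library 3 were close. The log2 fold change was 0.20 ± 0.15 (SE), with a 95% interval from -0.14 to 0.54, an adjusted p of 0.854 in edgeR and an exact two-sided permutation p of 0.1. Prkacb, the catalytic beta subunit, was at 273, 370.2 and 252 CPM in the nicotine libraries and at 329, 306 and 354 CPM in the control libraries. Here the control libraries lay inside the nicotine range, and the log2 fold change was -0.14 ± 0.19 (SE).

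Of the regulatory subunits, Prkar1a and Prkar1b form type I kinase, which is mostly soluble, and Prkar2a and Prkar2b form type II kinase, which is held at membranes and organelles by anchoring proteins. Prkar1a was at 656, 755 and 551 CPM in the nicotine libraries and at 678, 616 and 879 CPM in the control libraries. Prkar1b was at 116, 161 and 115 CPM against 119, 101 and 144 CPM. Both overlapped between the groups. Prkar2a was at 49.0, 59.8 and 44.9 CPM in the nicotine libraries and at 43.6, 52.9 and 52.5 CPM in the control libraries. Prkar2b was at 72.9, 55.2 and 50.8 CPM against 71.9, 62.4 and 49.0 CPM. These levels differed more within a group than between the groups. The log2 fold changes of the 4 regulatory subunits ran from -0.15 to 0.10, and those of Prkar1a, Prkar1b, Prkar2a and Prkar2b each took the other sign in at least 1 fit that left out a single library.

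The balance of isoforms within a library is given as 4 ratios of counts between kinase subunit genes. They were chosen after the values were seen and are a description. Of the 15 possible pairs of the 6 subunits, the ratio did not overlap between the groups in 4. All 4 were pairs among Prkaca, Prkacb, Prkar1a and Prkar1b, so they share genes and are not separate observations. How often ratios of other genes do not overlap was not determined. A ratio within a library does not depend on its total count. The ratio of Prkaca to Prkacb was 0.393, 0.329 and 0.440 in nicotine libraries 1 to 3, against 0.297, 0.299 and 0.300 in control libraries 1 to 3. The control libraries had a SD of 0.00161 around a mean of 0.299, while every nicotine library was higher and the nicotine libraries were spread over a SD of 0.0560. The mean log2 difference was 0.36 (0.27 to 0.48 with 1 library left out).

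The ratio of Prkar1a to Prkar1b also separated the groups. It was 5.68, 4.70 and 4.80 under nicotine against 5.72, 6.12 and 6.08 in control, with nicotine library 1 just below control library 1. The mean log2 difference was -0.24 (-0.33 to -0.19 with 1 library left out). The other two ratios overlapped between the groups. Prkar2a to Prkar2b was 0.673, 1.08 and 0.883 against 0.607, 0.847 and 1.07, and Prkar2b to Prkar1a was 0.111, 0.0730 and 0.0923 against 0.106, 0.101 and 0.0558. The exact two-sided permutation p on the log2 ratios, adjusted over the 4, was 0.2 for Prkaca to Prkacb and for Prkar1a to Prkar1b. For Prkar2a to Prkar2b and Prkar2b to Prkar1a it was 0.8. Groups that do not overlap always give the smallest p that 3 against 3 libraries allow, so the p adds nothing to the non-overlap. Because the ratios were chosen after the values were seen, these p-values do not account for that choice, and no conclusion is drawn from them.

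**Figure D3:**
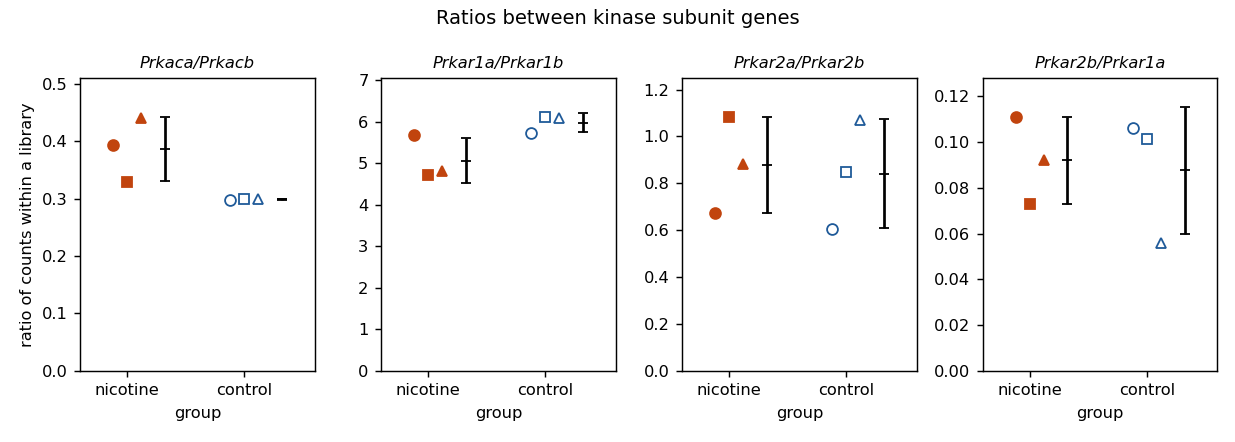
Ratios of counts between pairs of kinase subunit genes within each library, with nicotine libraries as filled and control libraries as open symbols, and bars for the mean ± SD of 3 libraries. The ratio of Prkaca to Prkacb lies between 0.297 and 0.300 in the control libraries and between 0.329 and 0.440 in the nicotine libraries.

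Phosphodiesterases were grouped by what they hydrolyse. The 8 genes of enzymes specific for cyclic AMP (Pde4a to Pde4d, Pde7a, Pde7b, Pde8a and Pde8b) lay at a median of 0.16 on the log2 scale, with 5 above and 3 below 0. The 8 genes of enzymes that take both cyclic AMP and cyclic GMP (Pde1a to Pde1c, Pde2a, Pde3a, Pde3b, Pde10a and Pde11a) had a median of -0.05 over the 7 tested, with 2 above and 5 below 0. Of the 5 genes of enzymes specific for cyclic GMP (Pde5a, Pde6a to Pde6c and Pde9a) 3 were tested, all above 0, with a median of 0.14. Pde6d, which encodes a carrier of lipid-modified proteins, and Pde12, which encodes a nuclease of 2′,5′-linked RNA, share the name and do not hydrolyse cyclic nucleotides.

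Pde1a, a phosphodiesterase switched on by calcium and calmodulin, was at 113, 50.3 and 126 CPM in the nicotine libraries and at 113, 133 and 107 CPM in the control libraries. Nicotine library 2 stood below the other 5, which lay between 107 and 133 CPM, and with it left out the log2 fold change moved from -0.29 to 0.006. Pde1c, of the same calcium-dependent family, was at 11.3, 13.5 and 14.5 CPM against 12.1, 16.1 and 12.4 CPM. Its groups overlapped, with a log2 fold change of -0.05. Pde5a, the cyclic GMP enzyme targeted by sildenafil, was at 18.6, 9.21 and 22.0 CPM against 14.0, 17.5 and 15.1 CPM, with nicotine library 2 again the lowest.

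Pde10a, known for its abundance in the striatum, was at 75.0, 54.8 and 71.6 CPM in the nicotine libraries and at 61.4, 43.9 and 82.4 CPM in the control libraries. Pde2a, which cyclic GMP stimulates, was at 21.4, 19.1 and 19.3 CPM against 11.7, 17.1 and 24.5 CPM. In both genes the control group was spread more widely than the nicotine group and enclosed it. Pde3b, which cyclic GMP inhibits and which acts downstream of insulin in fat cells, was at 57.8, 61.7 and 49.4 CPM against 76.9, 59.6 and 60.5 CPM. Its groups overlapped, and the log2 fold change was -0.22 ± 0.17 (SE).

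Pde8a, a high-affinity enzyme for cyclic AMP, had the smallest spread within groups among the members tested. It was at 23.4, 26.3 and 24.8 CPM in the nicotine libraries and at 22.9, 21.3 and 24.01 CPM in the control libraries, with a 95% interval of the log2 fold change from -0.20 to 0.46. Pde6d was at 59.8, 45.9 and 49.3 CPM against 69.5, 62.4 and 55.3 CPM. The log2 fold change of Pde6d was -0.27, with overlapping groups.

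Pde4c, 1 of the 4 genes of the rolipram-sensitive family, had the largest fitted difference and the smallest p of the members tested, at low counts. Its raw counts were 20, 23 and 21 under nicotine against 2, 13 and 4 in control, which is 0.424, 0.250 and 0.347 CPM against 0.0739, 0.246 and 0.106 CPM. Nicotine library 2 and control library 2 were nearly equal. The log2 fold change was 1.14 ± 0.57 (SE), with a 95% interval from -0.11 to 2.38 (unadjusted p = 0.0707, adjusted p = 0.839 from edgeR; exact two-sided permutation p = 0.1). The other members of that family, Pde4a, Pde4b and Pde4d, had log2 fold changes of 0.22, -0.10 and -0.21.

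The remaining phosphodiesterases tested were Pde1b, Pde3a, Pde4a, Pde4b, Pde4d, Pde6c, Pde7a, Pde7b, Pde8b, Pde9a and Pde12. Their groups overlapped in all 11. Among these Pde8b had the smallest p (log2 fold change 0.50 ± 0.26, SE; unadjusted p = 0.0826, adjusted p = 0.839 from edgeR), at 5.83 to 8.89 CPM in the nicotine libraries and 3.76 to 6.18 CPM in the control libraries. Of the members with too few counts, Pde11a reached at most 0.378 CPM and Pde6a at most 0.158 CPM, and Pde6b, a subunit of the rod photoreceptor enzyme, had 0 counts in all 6 libraries.

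Creb1 encodes the activator that protein kinase A phosphorylates. It was at 29.0, 30.9 and 20.9 CPM in the nicotine libraries and at 29.9, 26.9 and 29.2 CPM in the control libraries. Nicotine library 3 was the lowest, and the log2 fold change was -0.09 with a 95% interval from -0.49 to 0.31.

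Crem differed more between libraries of the same group than any other member tested. It encodes a family of activators and repressors, among them the inducible cyclic AMP early repressor (ICER), which is made from a promoter inside the gene that cyclic AMP itself switches on. Crem was at 468, 75.1 and 83.6 CPM in the nicotine libraries and at 104, 311 and 82.7 CPM in the control libraries. Nicotine library 1 and control library 2 were high and the other 4 lay between 75.1 and 104 CPM, so that the high libraries were split between the groups. The highest nicotine library was 6.23-fold above the lowest, and the highest control library 3.76-fold above the lowest. The log2 fold change of 0.33 had a 95% interval from -1.15 to 1.82, and it was -1.06 without nicotine library 1 and 1.16 without control library 2. The SD of log2 CPM within groups was 1.27 for Crem, beside a median of 0.27 over all genes, and placed Crem at rank 146 of the 17292 genes tested.

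Of all promoter windows of the members, only windows of Crem held the full cyclic AMP response element. RefSeq windows of 250 bases before to 50 bases after a start (rat build GRCr8) were matched by symbol for 31 of the 43 members, in 49 windows, and were searched for the full element TGACGTCA, which reads the same on both strands, and for its shorter form TGACG on either strand, which the full element contains. The full element was in 2 of the 49 windows, both of Crem (4.08% of the members' windows, beside 1.83% of all 33469 windows). The shorter form was in 15 of the 49 (30.6%, beside 21.2% of all windows). Of the 3 Crem windows, the most upstream, chr17:58933816-58934115 on the plus strand, held no full element. The other two are printed because they hold it, both 5′ to 3′ on the plus strand, with the element in capitals.
Crem, chr17:58984547-58984846: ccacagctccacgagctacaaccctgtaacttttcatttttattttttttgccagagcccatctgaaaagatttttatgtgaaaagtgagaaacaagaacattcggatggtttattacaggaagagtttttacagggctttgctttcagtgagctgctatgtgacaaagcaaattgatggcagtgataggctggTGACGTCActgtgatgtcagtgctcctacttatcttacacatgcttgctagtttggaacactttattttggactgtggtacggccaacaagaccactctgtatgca
Crem, chr17:58985240-58985539: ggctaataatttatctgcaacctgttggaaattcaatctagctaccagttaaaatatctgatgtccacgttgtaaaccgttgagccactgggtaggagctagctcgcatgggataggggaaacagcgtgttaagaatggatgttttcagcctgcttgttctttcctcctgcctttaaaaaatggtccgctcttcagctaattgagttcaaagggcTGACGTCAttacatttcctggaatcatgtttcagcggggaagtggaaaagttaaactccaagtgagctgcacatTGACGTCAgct
In the first of these the element began 56 bases before the start. In the second it began 35 bases before the start, and a further copy began 39 bases after the start. The counts were made per gene, so that transcripts of the different Crem promoters cannot be told apart here, and a match to the letters is not evidence of binding.

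The libraries with high Crem were then read across the other genes, which was decided after the Crem values were seen and is given as a description. The 2 highest libraries were nicotine library 1 and control library 2 for 1136 of the 17292 genes tested (6.57%), where each of the 15 pairs of libraries would take 6.67% if all were equally frequent. Among the members this held for Crem and Pde4d, which is 2 of 40. Pde4d, a cyclic AMP-specific enzyme, was at 16.2, 9.73 and 8.00 CPM in the nicotine libraries and at 9.79, 17.9 and 11.3 CPM in the control libraries. Its high libraries were thus the same as those of Crem, at a smaller distance from the rest.

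Ranked by the log2 gap between the second and the third library, on CPM with 0.5 added, the 10 leading genes of those 1136 were Gpr135, Fam167a, Bag2, Crem, Fosl2, Pard6a, Eva1c, Coq10b, Ell2 and Atoh7. The gap of Crem was 1.58, which was the fourth largest. Fosl2, a partner of JUN in the AP-1 transcription factor, was at 107, 21.1 and 17.0 CPM in the nicotine libraries and at 35.6, 148 and 18.5 CPM in the control libraries. Ell2, an elongation factor of RNA polymerase II, was at 380.4, 70.0 and 88.0 CPM against 123, 277 and 96.8 CPM. Bag2, a co-chaperone of HSP70, was at 80.2, 14.4 and 16.3 CPM against 17.9, 54.8 and 16.5 CPM. In each of the 3 genes both high libraries lay above all 4 others, as the choice of these genes required.

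RefSeq windows were matched for 9 of these 10 genes, in 15 windows. The full element was in 4 of them (26.7%), beside 1.83% of all windows. Of the 4, 2 were of Crem itself, whose libraries defined the list. The remaining windows were 1 of Ell2 and 1 of Pard6a, which encodes a cell polarity protein. The genes were picked from these same data, and the difference from the share of all windows was not tested. The stretches of 40 bases around the element in Ell2 and Pard6a are shown to set them beside Crem, both 5′ to 3′ on the plus strand of GRCr8 with the element in capitals.
Ell2, within chr2:6921602-6921901: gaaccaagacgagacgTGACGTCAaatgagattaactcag
Pard6a, within chr19:50499708-50500007: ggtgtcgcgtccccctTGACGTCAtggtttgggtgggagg
The element began 233 bases before the start in Ell2 and 50 bases before it in Pard6a. The windows of the other 6 matched genes, which include those of Fosl2 and Bag2, did not hold the full element, which says only that these letters are not in those windows.

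In each list of other genes around the cyclic AMP route, a minority or none shared the 2 highest libraries of Crem. Of the 13 CREB target genes tested, the 2 highest libraries were the same as for Crem in 2, the clock gene Per1 and the orphan nuclear receptor gene Nr4a3. The same held for 3 of the 13 anchoring proteins (Akap3, Akap8l and Akap12) and 2 of the 11 G protein genes (Gnai3 and Rgs2). It held for 1 of the 4 genes listed with the kinase inhibitors (Prkx) and 1 of the 9 partners of CREB (Atf1). Among the 14 receptors that lower cyclic AMP it held for 1 (Sstr2). It held for 0 of the 15 receptors that raise cyclic AMP and 0 of the 10 other effectors. Of the 7 cyclic GMP genes and the 1 phosphodiesterase symbol outside the members it held for 0. Over all genes tested the share was 6.57%, and these small counts were not tested against it. Per1 was at 25.8, 17.7 and 10.4 CPM in the nicotine libraries and at 21.6, 51.1 and 14.3 CPM in the control libraries. Rgs2, a brake on G protein signalling that is listed with the G protein genes, was at 92.0, 27.5 and 22.4 CPM against 54.0, 103 and 25.9 CPM. Fos, the most widely used marker of recent cell activation, did not share this order. It was at 29.0, 120.3 and 26.1 CPM in the nicotine libraries and at 114, 28.2 and 92.7 CPM in the control libraries, low in both libraries where Crem was high. The pineal gland also makes much ICER, and its markers Crx, Aanat and Asmt were at 0 to 0.158 CPM in all libraries.

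**Figure D4:**
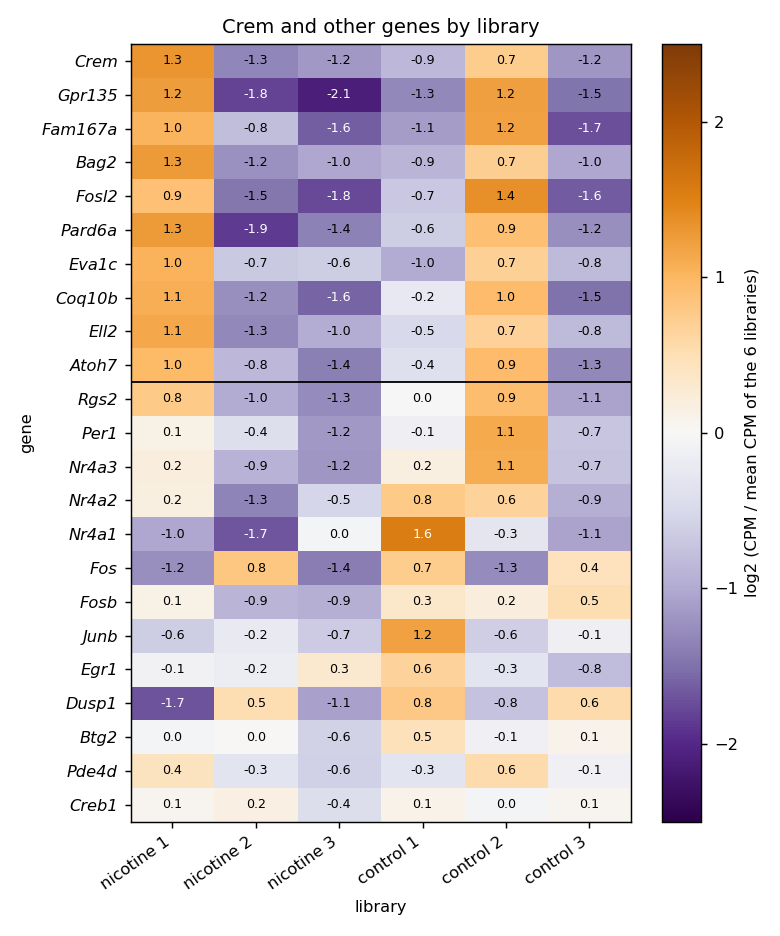
Log2 ratio of the CPM in each library to the mean CPM of the 6 libraries, for Crem and the 9 other genes with the largest gap in the same 2 libraries (above the line), and for Rgs2, CREB target genes, Pde4d and Creb1 (below it). Nicotine library 1 and control library 2 are above the mean in the rows above the line because those genes were chosen for it. Below the line, Rgs2, Per1, Nr4a3, Nr4a2, Fosb and Pde4d are above the mean in both libraries. Nr4a1, Fos, Junb, Egr1, Dusp1 and Btg2 are below the mean in both, Btg2 only slightly (-0.04 and -0.10).

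The genes around the members in the pathway were taken as 10 lists with 118 genes, 97 of which were tested. None was called by edgeR or by DESeq2, beside 0% and 0.339% of all genes. At an unadjusted p under 0.05 there were 4 higher and 5 lower genes, beside 3.12% and 2.73% of all genes. The groups did not overlap for 8 higher and 7 lower genes, beside 6.12% and 5.14% of all genes. These counts are out of 97 genes, and whether they exceed the shares over all genes was not tested. The median log2 fold change over the 97 genes was 0.02.

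Of 15 receptors tested that raise cyclic AMP, 1 was at an unadjusted p under 0.05. This was Adcyap1r1, the receptor of the hypothalamic peptide PACAP, at 55.1, 73.5 and 66.7 CPM in the nicotine libraries and at 45.6, 45.7 and 47.8 CPM in the control libraries. All nicotine libraries lay above the control libraries, which were close to each other, and the log2 fold change was 0.49 ± 0.16 (SE; unadjusted p = 0.0114, adjusted p = 0.807 from edgeR). Ghrhr, the receptor for growth hormone-releasing hormone, was at 33.3, 70.9 and 29.1 CPM against 27.7, 42.4 and 24.6 CPM, and overlapped between the groups. Crhr1, the receptor of corticotropin-releasing hormone, had a log2 fold change of 0.13 ± 0.23 (SE).

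Of 14 receptors tested that lower cyclic AMP, 1 was higher and 2 were lower at an unadjusted p under 0.05. Adra2a, an alpha-2 adrenergic receptor, was at 4.84, 3.09 and 5.63 CPM in the nicotine libraries and at 6.72, 8.80 and 7.90 CPM in the control libraries. Its groups did not overlap, and the log2 fold change was -0.79 ± 0.26 (SE; adjusted p = 0.807 from edgeR). Ptger3, a receptor of prostaglandin E2, was also lower without overlap (log2 fold change -0.58), and Sstr3, a somatostatin receptor, was higher (1.11) through nicotine library 2, at 30.4 CPM beside 5.26 to 9.33 CPM in the other 5. Drd2, through which dopamine restrains prolactin cells, was at 71.7, 94.6 and 143 CPM against 86.5, 103 and 155 CPM, with overlapping groups.

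Among the 11 G protein genes, Gnai2 and Gnb2 were higher and Gnai1 lower in all nicotine libraries, with log2 fold changes of 0.27, 0.24 and -0.33 and unadjusted p-values from 0.0647 to 0.174 in edgeR. Of the 4 genes with the kinase inhibitors, 1 was at an unadjusted p under 0.05. Pkib, a peptide inhibitor of the catalytic subunits, was at 20.2, 9.25 and 17.9 CPM in the nicotine libraries and at 27.5, 23.7 and 30.1 CPM in the control libraries, with a log2 fold change of -0.78 ± 0.26 (SE; unadjusted p = 0.0120, adjusted p = 0.807 from edgeR). The groups of Pkib did not overlap. Among the 13 anchoring proteins tested, 0 were at an unadjusted p under 0.05 and 0 had groups that did not overlap.

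Of 10 other effectors of cyclic AMP tested, Rapgef3, the exchange factor EPAC1, was at an unadjusted p under 0.05. It was at 13.2, 16.8 and 14.2 CPM in the nicotine libraries and at 10.04, 12.4 and 10.01 CPM in the control libraries (log2 fold change 0.44 ± 0.18, SE; adjusted p = 0.839 from edgeR). Rapgef4, the exchange factor EPAC2 of endocrine cells, had a log2 fold change of 0.06. Of the 9 partners of CREB, the coactivators Crtc2 and Crtc3 were higher in all nicotine libraries, with log2 fold changes of 0.30 and 0.31. Of the 13 CREB targets tested, 1 was above 0, where 51.2% of all genes were, the median was -0.70 beside 0.008 for all genes, and Fosb and Junb were lower at an unadjusted p under 0.05. Control library 1 was the highest library for 6 of the 13, and without it, an alternative added after seeing the data, the median was -0.17, with 11 of 13 below 0 and 1 at an unadjusted p under 0.05. These targets are immediate early genes in the main and varied widely within groups: Junb was at 61.6 to 83.6 CPM in the nicotine libraries and at 63.7 to 224 CPM in the control libraries, the highest being control library 1. Of the 7 genes of the cyclic GMP route tested, 0 were at an unadjusted p under 0.05. Pde4dip, which anchors a phosphodiesterase, was higher in all nicotine libraries (log2 fold change 0.37, unadjusted p = 0.0484 in edgeR).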

How the data were processed

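Pituitary RNA of 3 nicotine and 3 control rats was measured by strand-specific paired-end RNA-seq. Per the labels and the study's methods, the authors demultiplexed reads with bcl2fastq 2.20.0.422, aligned them to rn7 with HISAT2 2.1.0 and assigned them to genes with featureCounts. The deposited values are raw counts per gene symbol, 1 file per library. Strand setting, treatment of reads with several matches, and whether reads or pairs were counted are not given in the sources used here, so members with near copies and overlapping genes are uncertain.

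Calculations were done in R 4.3.3. edgeR 4.0.16 was run without covariates (filterByExpr, TMM, quasi-likelihood test, Benjamini-Hochberg over all genes tested, 17292 of 24546 with a count), after a test on simulated data. CPM are after TMM, whose factors lay between 0.957 and 1.07, and SD, SE and n refer to 3 libraries. The common biological coefficient of variation was 23.6%, and 1 CPM corresponds to 28.3 to 86.0 counts. Genes were called at a fold change above 1.5 with an adjusted p below 0.1. Single genes and the ratios of kinase subunits had an exact two-sided permutation test over 20 arrangements. DESeq2 1.42.0, limma 3.58.1 (voom), other normalizations and filters, thinning, a block for replicate numbers, and fits without single libraries served as alternatives.

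Members and lists were chosen with earlier results of these data known. Values in every library are given for Gnas, Gnal, Creb1, Crem, the kinase subunits, the 5 cyclases and 8 phosphodiesterases with the highest mean CPM, and other members whose groups did not overlap or whose unadjusted p was under 0.05. Per list, genes with the highest CPM or the smallest p were taken. Pde4d and Pde8b, the genes read beside Crem, and Gnai1, Gnai2, Gnb2, Crtc2, Crtc3, Crhr1, Ptger3, Junb and the genes of the lists that shared the order of Crem were named after their values were seen. Promoter windows are from RefSeq (GRCr8), whose build differs from that of the files, so no other coordinates are printed. Testis methylation was not analysed here.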

Additional observations from a re-analysis of the deposited data

How the results depend on the processing

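In all 22 alternatives 0 cyclic AMP genes were called. Over all genes the number called went from 0 to 61 with DESeq2, 30 without a filter, 4 without nicotine library 1 and control library 2 together (chosen after seeing the data), 2 with the replicate block, and 1 each with voom, library sizes alone, at least 10 counts in every library, and thinning to the smallest library. RLE normalization and leaving out genes over 1% of the counts left it at 0. Leaving out 1 library gave 0 to 4 calls in edgeR (4 without control library 2) and, chosen after seeing the data, 42 (without control library 3) to 188 (without nicotine library 3) in DESeq2. Same-numbered libraries were not taken as pairs, because their deviations from the group means correlated at 0.026, -0.198 and -0.0785; with the block the median log2 fold change was 0.03 for all members, 0.22 for cyclases and -0.01 for phosphodiesterases.

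At an unadjusted p under 0.05 the number of members was 1 with voom, Pde8b, and 0 to 4 with 1 library left out, 4 being DESeq2 without control library 3. In edgeR these were Crem and Pde9a without nicotine library 1, Prkacb and Pde8b without nicotine library 2, Pde4c without control library 2, and Adcy5 and Pde8b without control library 3, each named after the values were seen. The median log2 fold change of the phosphodiesterases was -0.019 with DESeq2 and -0.020 with at least 10 counts, and -0.067 to 0.12 with 1 library left out. That of all members was -0.015 to 0.13 with 1 library left out.

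Of 548 comparisons of 25 named genes with the alternatives, 509 kept their direction and 39 reversed, with 0 past the thresholds. Pde4c had too few counts to give a value with at least 10 counts in every library and after thinning. With 1 library left out the log2 fold change ran from -1.06 to 1.18 for Crem, -0.21 to 0.081 for Creb1, -0.27 to 0.029 for Prkar1a, -0.084 to 0.26 for Prkar1b, -0.091 to 0.15 for Prkar2a, -0.20 to 0.099 for Prkar2b, -0.099 to 0.36 for Pde10a, -0.53 to 0.013 for Pde1a, -0.12 to 0.11 for Pde1c, -0.058 to 0.48 for Pde2a and -0.16 to 0.38 for Pde5a. Other reversals were Prkar2a at -0.054 with voom, Prkar2b at 0.022 and Pde1c at 0.0021 with library sizes alone, and Crem at -0.23, Pde10a at -0.19 and Pde1c at 0.19 without nicotine library 1 and control library 2. The cause was not tested. With 3 rats per group a 1.5-fold change was within the interval of most members, and depth limits Pde4c, Adcy8 and the untested Pde6a and Pde11a.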
